A study of Mus musculus with 78 samples.

Results

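Steady-state poly(A) RNA was measured in mouse embryonic stem cells that had lost the transcription factor ZFP143 for 48 h. The genes described are those whose count was above 10 in 2 or more of the 4 libraries compared, 2 of cells kept for 48 h in 500 nM dTAG-V1 and 2 of cells kept in DMSO, which left 14171 of the 55401 genes in the table. All 4 libraries came from E14TG2a cells (129/Ola background, genotype ZFP143-FKBP), in which the FKBP-2xHA-P2A-GFP cassette was knocked in before the stop codon of Zfp143, so the control cells carried the tag too. dTAG-V1 directs an FKBP-tagged protein to degradation, and DMSO is its solvent. Cells grew on gelatin in serum-free medium with LIF and inhibitors of MEK and GSK3, which holds them in the naive state. The labels give no time for the DMSO libraries, and no library of untagged cells given dTAG-V1 was analysed here. The 4 libraries held 10760455 to 15316700 counts.

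ZFP143 (ZNF143 in human) is a zinc finger protein that binds promoters close to the transcription start site and activates genes transcribed by RNA polymerase II and RNA polymerase III. It is known for promoters of housekeeping genes, many of them for nuclear-encoded mitochondrial proteins. RNA measured at steady state holds both the RNA that cells make and the RNA that lasts, so long-lived transcripts move slowly.

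The promoters of 6 genes are given first, those with the greatest decrease among genes with a ZFP143 peak and a mean count of at least 100 over the 4 libraries, because the peak lies on these sequences and their RNA was all but lost. Each line gives the 150 bases just upstream of the start site, 5′ to 3′ on the strand of the gene, from RefSeq promoters of GRCm38.p6. Capitals mark matches on either strand to TTCCCAG or ACTACA, short pieces of the known ZFP143 site that do not overlap each other in these windows and were chosen with these promoters already seen. The windows lie at chr7:24208150-24208299 (−) for Zfp111, chr11:70015429-70015578 (−) for Acadvl, chr4:116708386-116708535 (−) for Mmachc, chr19:5601723-5601872 (+) for Rnaseh2c, chr9:57552753-57552902 (−) for Mpi and chr1:88008552-88008701 (−) for Usp40, and all 150 bases of each lay within the peak.
Zfp111: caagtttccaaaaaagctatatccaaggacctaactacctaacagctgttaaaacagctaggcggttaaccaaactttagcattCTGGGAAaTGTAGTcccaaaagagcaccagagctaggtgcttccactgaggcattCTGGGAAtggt
Acadvl: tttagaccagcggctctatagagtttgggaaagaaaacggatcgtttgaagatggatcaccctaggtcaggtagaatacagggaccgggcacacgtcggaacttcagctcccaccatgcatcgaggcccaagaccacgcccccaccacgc
Mmachc: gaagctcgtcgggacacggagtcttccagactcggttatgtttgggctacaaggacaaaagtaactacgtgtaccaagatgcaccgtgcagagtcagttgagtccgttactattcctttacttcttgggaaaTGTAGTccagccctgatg
Rnaseh2c: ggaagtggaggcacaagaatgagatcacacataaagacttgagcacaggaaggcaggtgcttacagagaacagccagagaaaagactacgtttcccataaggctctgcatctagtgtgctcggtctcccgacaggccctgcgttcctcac
Mpi: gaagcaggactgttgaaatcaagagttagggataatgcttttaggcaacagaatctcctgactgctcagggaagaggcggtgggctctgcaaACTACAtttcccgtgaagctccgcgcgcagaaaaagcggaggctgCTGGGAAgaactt
Usp40: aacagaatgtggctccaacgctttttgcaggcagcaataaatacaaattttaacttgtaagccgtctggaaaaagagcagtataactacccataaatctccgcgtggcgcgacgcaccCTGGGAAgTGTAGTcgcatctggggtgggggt
Zfp111 held TTCCCAG at 2 places and ACTACA at 1 place, all on the reverse strand. Mpi and Usp40 held both strings once, Mmachc held ACTACA alone, and the windows of Acadvl and Rnaseh2c held neither. Only exact matches were sought, so a window without them can still hold a site that varies from these strings. Over 32851 RefSeq promoters of 300 bases, 11.1% held TTCCCAG, 10.3% held ACTACA and 1.55% held both. Among genes with a promoter in that table, both strings were held by 19.6% of 413 genes with a peak that were lower at 48 h, by 9.98% of 1203 genes with a peak that were not called, and by 0.546% of 7146 uncalled genes without a peak.

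The libraries were compared first. On the log2 scale, the SD of the difference between replicates over genes was 0.209 for DMSO, against 0.732 between the first DMSO and the first 48 h library. DMSO replicate 1 stood apart in ribosomal RNA: CT010467.1, an annotated rRNA gene, was at 40077 CPM (counts scaled to library totals adjusted by TMM) there and at 5158 CPM in DMSO replicate 2, and at 6872 and 5328 CPM at 48 h. It was called lower at 48 h, and without DMSO replicate 1 its log2 change was 0.25 and it was not called. Lars2 was at 4214 and 1418 CPM in DMSO and at 1736 and 1602 CPM at 48 h and was not called. Of 8 embryonic stem cell markers all were tested, and their summed level was 6526 to 6731 CPM in DMSO and 4386 to 4471 CPM at 48 h. Markers of other cell types summed to 6.43 to 7.63 CPM in DMSO and 17 to 19.3 CPM at 48 h for primitive endoderm, to 9.56 to 10.1 and 11.3 to 14.2 CPM for mesoderm, and to 121 to 125 and 55.3 to 60.9 CPM for neural cells. They summed to 26.3 to 27.9 and 25.5 to 25.6 CPM for trophoblast, to 0.428 to 0.919 and 1.42 to 2.40 CPM for 2-cell-like cells and to 2.48 to 2.78 and 4.87 to 5.50 CPM for fibroblasts. The neural sum was mostly Tubb3, at 117 and 122 CPM in DMSO and at 48.9 and 42.7 CPM at 48 h. Of the 3 neural markers tested, 1 was lower, Tubb3, and 1 was higher, Sox1. Neurog2, Tpbpa, Dcn, Postn and Lum had no counts in any of the 4 libraries.

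Zfp143 itself, the targeted gene, lies at chr7:110061217-110095394 in mm10. Its RNA was at 43.0 and 44.3 CPM in DMSO and at 95.1 and 93.3 CPM at 48 h. The RNA was therefore higher in both depleted libraries, a log2 change of 1.11 ± 0.06 (SE, edgeR glmTreat, adjusted p = 4.3e-09). Degradation acts on the protein, so this RNA does not check the labels of the libraries. A Zfp143 increase was also called in TT-seq, which measures newly made RNA, at 24 h (log2 change 1.18), by the looser rule given below for those libraries.

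After 48 h of ZFP143 loss, genes called lower were mostly well expressed in DMSO and genes called higher were mostly weakly expressed there. Against a fold change of 1.5 at an adjusted p under 0.01 (edgeR glmTreat, Benjamini-Hochberg), 1161 genes were lower, 8.19% of the 14171, and 1487 were higher, 10.5%. The 48 h libraries both lay below both DMSO libraries for 40.7% of all genes and above for 41.0%, and did so in the called direction for 2647 of the 2648 called genes, the exception being CT010467.1. The median change of all genes was 0.00 on the log2 scale. The lower genes had a median DMSO level of 48.3 CPM and the higher genes one of 2.05 CPM, against 25.8 CPM for all. The DMSO level is also the base of each change, and a gene almost absent there could not be called lower. This contrast is therefore fixed in part by the calls. The median log2 change was -1.26 for the lower genes, of which 250 fell by over 4-fold, and 1.79 for the higher genes, of which 618 rose by over 4-fold. In bulk RNA, fewer cells of a type and less RNA per cell cannot be told apart.

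**Figure D1:**
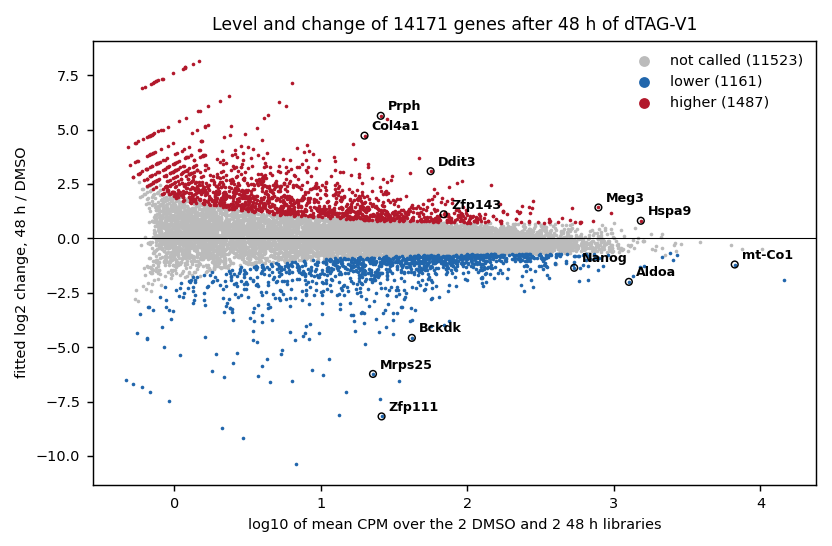
Fitted log2 change at 48 h over DMSO against the log10 of the mean CPM over the 4 libraries, 1 point per gene, blue for the 1161 lower, red for the 1487 higher and grey for the 11523 genes not called. Higher genes crowd the left, at low levels, while lower genes reach across the range.

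The split between directions moved with level. In the fifth of genes with the lowest mean count, 3.84% were lower and 20.8% higher, and in the fifth with the highest, 9.99% were lower and 2.61% higher. The filter shaped part of this. Genes that passed in both groups numbered 12525, of which 1036 were lower and 962 higher, so the order of the counts over all genes (1161 and 1487) turned. A further 641 passed through the 48 h libraries alone, of which 402 were higher, and 216 through the DMSO libraries alone, of which 97 were lower, and such genes had to differ. At the edge of the rule, 225 genes had a second-highest count of 11, with 4 lower and 17 higher, and 218 genes just outside it had one of 10.

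Genes were ranked by fold among those with a mean count of at least 100 over the 4 libraries, a limit that requires a high DMSO level of genes falling to near 0 and leaves out weakly expressed genes with greater decreases. Of the 12 with the greatest decrease, 9 passed the filter only through DMSO and could only be lower, all but Mpi, Pycard and Bckdk. Zfp111, which encodes a zinc finger protein, was at 51.2 and 52.4 CPM in DMSO and at 0.240 and 0.0888 CPM at 48 h, a log2 change of -8.18 ± 0.23. Acadvl, the very long chain acyl-CoA dehydrogenase of mitochondrial fat oxidation, was at 26.6 and 26.5 CPM in DMSO and had 1 count in each 48 h library, a ratio of 315-fold with a counting interval of 86.9 to 2609. Mmachc, which processes cobalamin (vitamin B12) in the cytosol, was at 46.8 and 53.4 CPM in DMSO and 0.160 and 0.444 CPM at 48 h. In these 3 genes, and in Rnaseh2c, every 48 h library was below 1% of the DMSO level. Rnaseh2c, a subunit of the nuclease that removes RNA from DNA, was at 31.0 and 27.8 CPM and then at 0.160 and 0.266 CPM. Mpi, which makes mannose 6-phosphate for glycosylation, was at 69.6 and 66.7 CPM and then at 0.479 and 0.976 CPM. Usp40, a ubiquitin protease, was at 19.2 and 21.4 CPM and then at 0.319 and 0.178 CPM.

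Mrps25, a protein of the mitochondrial small ribosomal subunit, was at 42.7 and 46.9 CPM in DMSO and at 0.798 and 0.355 CPM at 48 h (log2 change -6.23 ± 0.20). Bckdk, the kinase that restrains branched-chain amino acid breakdown, was at 79.6 and 81.0 CPM and then at 3.35 and 3.37 CPM. Enox2, Ccdc90b and Pycard, the last an adaptor of the inflammasome, had log2 changes of -6.05, -5.55 and -4.84. Krt7, a keratin, was at 16 CPM in both DMSO libraries and 0.719 and 0.533 CPM at 48 h, and it alone of the 12 had no peak at its promoter. Acadvl overlaps Dvl2 on the opposite strand, Rnaseh2c overlaps Kat5, Usp40 overlaps Dgkd and Mrps25 overlaps Nr2c2. The partners had log2 changes of 0.10, 0.33, 0.15 and 0.17 and were not called. The strand used for counting is not given in the sources used here.

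Among the other genes that passed only through DMSO, Mettl26 was at 13 and 14.3 CPM in DMSO with no count at 48 h, which makes it at least 109-fold lower against a floor of 3 counts over the group. Setmar was at least 47.5-fold lower and Chac2 at least 34.1-fold lower. Among those that passed only through 48 h, Insrr, Enpep and Ptgs2 (the inducible cyclooxygenase) had no count in DMSO and were at least 24.1-fold, 22-fold and 19.9-fold higher. Intervals and floors cover counting error only.

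The greatest increases under the same limit on mean count began from low levels. Prph, the intermediate filament peripherin of peripheral neurons, was at 1.10 and 0.927 CPM in DMSO and at 50.5 and 50.2 CPM at 48 h, a log2 change of 5.63 ± 0.15 (edgeR adjusted p = 1.67e-21). Trim66, a chromatin-associated tripartite motif protein, was at 1.10 and 1.28 CPM and then at 51.1 and 59.0 CPM. Col4a1, a chain of basement membrane collagen, was at 1.29 and 1.57 CPM and then at 40.0 and 36.7 CPM. It overlaps Col4a2, also higher, on the opposite strand. All 3 were at or under 2 CPM in both DMSO libraries. Steap1, a membrane metalloreductase, and Soat2, which esterifies cholesterol, had log2 changes of 4.34 and 3.66. Ubap1l was at 7.26 and 6.13 CPM and then at 89.2 and 85.3 CPM. Ttc41 was the only gene of the 12 with a ZFP143 peak at its promoter, and was at 0.643 and 1.50 CPM and then at 16.3 and 17.1 CPM. Serpine2, a protease inhibitor, and Cyp1a1, the cytochrome induced through the aryl hydrocarbon receptor, had log2 changes of 3.40 and 3.27.

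**Figure D2:**
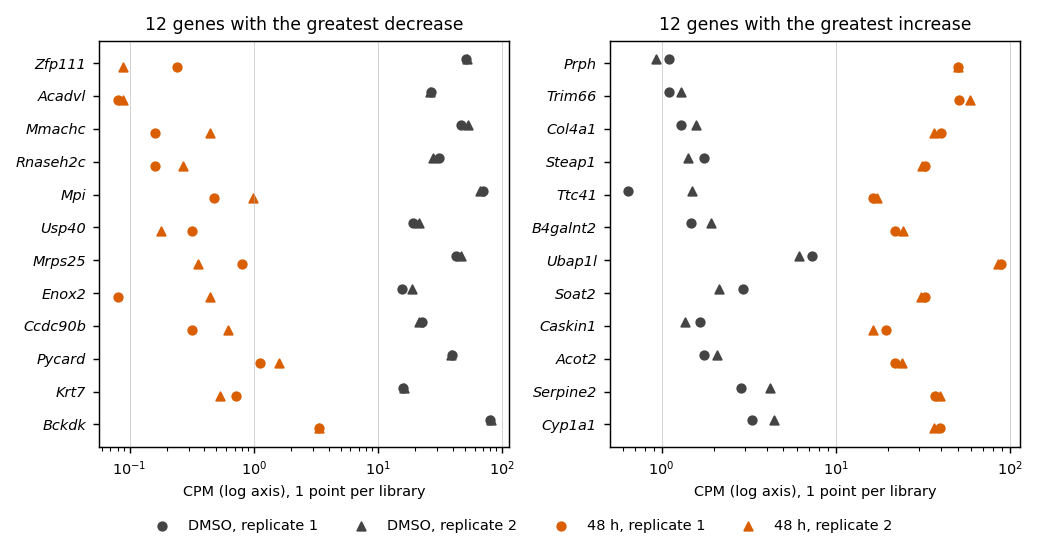
CPM on a log axis in each of the 4 libraries, grey for DMSO and orange for 48 h, circles for replicate 1 and triangles for replicate 2, for the 12 genes with the greatest decrease (left) and the greatest increase (right) at a mean count of at least 100. Genes were picked with groups that do not overlap, as 40.7% (below) and 41% (above) of all genes also do not, so the gap itself is fixed by the choice.

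Measured in CPM rather than in fold, the losses were in very abundant transcripts. mt-Co1, a subunit of cytochrome oxidase encoded by mitochondrial DNA, was at 8929 and 9673 CPM in DMSO and at 3866 and 4223 CPM at 48 h. Aldoa and Pkm, enzymes of glycolysis, were at 2069 and 1977 CPM and at 2072 and 2070 CPM in DMSO, and at 514 and 498 CPM and at 636 and 606 CPM at 48 h. Hsp90aa1, a cytosolic chaperone, had a log2 change of -0.78, and its call was lost in DESeq2, with scaling by total counts, without DMSO replicate 2 and without 48 h replicate 1. Tubb5, a tubulin, had one of -0.84, and its call was lost with scaling by total counts. The greatest gains were in Hspa9, the chaperone of the mitochondrial matrix, at 1092 and 1127 CPM in DMSO and 1938 and 1948 CPM at 48 h, and in the imprinted noncoding RNAs Rian and Meg3. Rian was at 571 and 602 CPM and then at 1300 and 1370 CPM. Meg3 was at 463 and 391 CPM and then at 1164 and 1117 CPM. Ghitm, Eprs, Snrnp200, Nfe2l1 and Fam129a completed the 8, with log2 changes of 1.41, 0.81, 0.77, 0.75 and 1.73.

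Promoter binding was set against the RNA change, with a ZFP143 peak counted for a gene when its centre lay within 2000 bp of an annotated start site. Peaks came from the authors' single list from cells with the tag, with no replicate. Of 1097 lower genes that could be assigned, 521 carried a peak, 47.5% (exact binomial 95% interval 44.5 to 50.5%). Of 1397 higher genes 82 did, 5.87% (4.70 to 7.23%), and of 10323 uncalled genes 1465 did, 14.2% (13.5 to 14.9%). Over all 12817 assignable genes the share was 16.1%. The paper places most peaks at active promoters, and the higher genes had a median DMSO level of 2.05 CPM against 25.8 CPM for all. How far the DMSO level sets these shares was not tested. Seen from the peaks, 25.2% of the 2068 genes with a peak were lower and 3.97% higher, and of the 10749 genes without one 5.36% were lower and 12.2% higher. The lower share rose with enrichment of the peak over input, from 16.3% in the weakest of 4 bins to 21.4, 28.4 and 34.7% in the strongest, and the median change went from -0.23 to -0.49 on the log2 scale. It was 29.1% for peaks centred within 100 bp of the start, 20.9% between 100 and 500 bp, and 15.9% beyond.

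**Figure D3:**
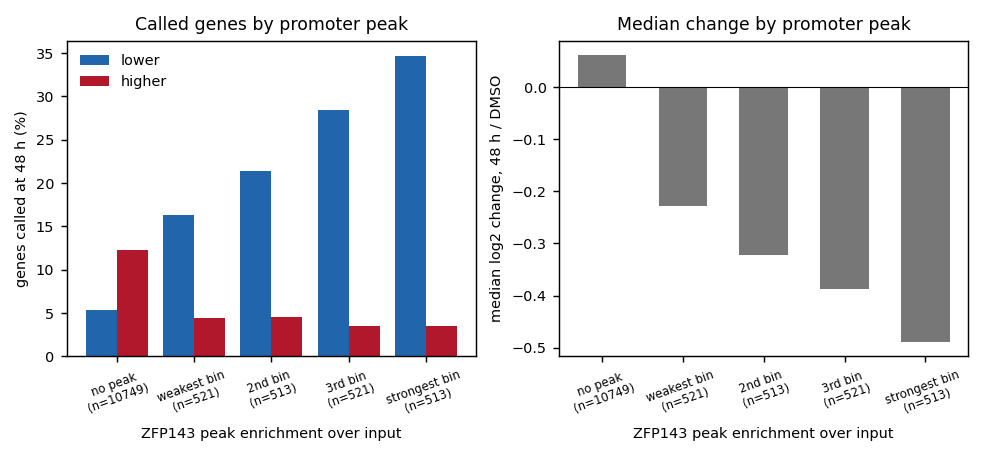
Percent of genes called lower (blue) or higher (red) at 48 h, and median log2 change, for genes without a ZFP143 peak and for 4 bins of genes by enrichment of their promoter peak over input. The lower share climbs from 5.36% without a peak to 34.7% in the strongest bin.

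Among lower genes with the strongest peaks, St3gal2, a sialyltransferase, was at 79.9 and 71.2 CPM in DMSO and 5.19 and 5.68 CPM at 48 h, under a peak of 206-fold enrichment. Nedd8, a ubiquitin-like modifier, Birc5 (survivin), and Fto, an RNA demethylase, carried peaks of 179, 177 and 171-fold and had log2 changes of -1.19, -1.10 and -1.31. Rpgrip1l, a protein of the ciliary transition zone, carried the same peak as Fto and had a log2 change of -1.42. Of bound genes that rose, Ddit3, the stress transcription factor CHOP, was at 11.6 and 12 CPM in DMSO and 97.6 and 104 CPM at 48 h. The centre of its peak lay 1834 bp from the nearest start site. Ddit3 overlaps Mars on the opposite strand, which carried a peak of its own and fell by 0.91 on the log2 scale.

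Genes of the nuclear-encoded respiratory chain were lower in part, and the share of each list is to be read against the 8.19% lower and 10.5% higher of all genes. Of 41 tested members of complexes II to V, 16 were lower, 39% of them, and none higher, with a median log2 change of -0.48 against 0.00 for all genes. Uqcr10, a subunit of complex III, was at 128 and 134 CPM in DMSO and 8.70 and 7.81 CPM at 48 h, and Cox7c, of complex IV, at 80.2 and 75.0 CPM and then 5.27 and 6.30 CPM. Both carried a peak, as did 8 of the 16 lower members. Atp5j2 and Atp5d, of the ATP synthase, had log2 changes of -2.05 and -2.02. Complex I held 2 lower genes among 38, Ndufa3 (-1.27) and Ndufa4l2 (-3.17), a paralog named like a subunit, and its median was -0.15. Scaling by total counts alone moved the median of all genes to 0.21, that of complexes II to V to -0.28 and that of complex I to 0.05.

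Of 77 mitochondrial ribosomal proteins, 10 were lower and none higher, a share of 13% against 8.19% of all genes, and in DESeq2 7 were lower, 9.09%. Mrps25 passed the filter only through DMSO. The median of the list was -0.12 and became 0.08 when libraries were scaled by total counts alone. The lower ones included, besides Mrps25, Mrpl24 (103 and 97.5 CPM, then 15.6 and 13.9 CPM), Mrpl54 and Mrpl34, at -2.76, -2.58 and -2.37, and 8 of the 10 carried a peak. Among 31 factors of mitochondrial transcription and translation, Mtrf1, a release factor, Tfb1m and Mtif2 were lower, and the last pair lost their calls in DESeq2, with scaling by total counts, without DMSO replicate 2 and without 48 h replicate 1, and Tfb1m also without 48 h replicate 2. Of the 31, 3 were lower in edgeR and 1 in DESeq2 or without 48 h replicate 1. The list of mitochondrial tRNA synthetases held 1 lower gene among 20, Gatb (-1.47), a subunit of the amidotransferase that acts on glutamyl-tRNA and not a synthetase, so no synthetase of the list was called.

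Transcripts of mitochondrial DNA carry no nuclear promoter. Of 9 tested, 5 were lower and none higher, with a median of -0.90, and their summed level was 19175 to 20926 CPM in DMSO and 9147 to 9970 CPM at 48 h. mt-Nd5, mt-Cytb, mt-Co1, mt-Nd1 and mt-Nd4 had log2 changes of -1.30, -1.26, -1.20, -0.98 and -0.90. mt-Nd6 and mt-Nd2 had values of -0.88 and -0.61 and were not called. The rRNAs mt-Rnr1 and mt-Rnr2 were at 348 and 216 CPM and at 446 and 298 CPM in DMSO, a gap between replicates, and at 254 and 266 CPM and at 323 and 340 CPM at 48 h. Without DMSO replicate 1, 7 of the 9 were called, and with scaling by total counts 4, mt-Nd4 losing its call. Libraries were made from poly(A) RNA, and copies of mitochondrial sequence in the nuclear genome may share reads.

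Most glycolysis genes fell, with 14 of 22 lower (63.6%), none higher and a median of -1.18, and none of the 22 carried a peak. Slc16a3, a lactate exporter, was at 58.0 and 63.8 CPM in DMSO and 4.79 and 6.57 CPM at 48 h. Tpi1 was at 453 and 478 CPM and then at 100 CPM in both libraries, and Ldha, which makes lactate, at 1046 and 1063 CPM and then at 276 and 279 CPM. Pfkl, Slc2a1 (the GLUT1 glucose transporter) and Pgk1 had log2 changes of -1.84, -1.49 and -1.45. Of other members, Hk2, Pdk1 and Slc2a3 had values of -0.44, -0.12 and 0.03 and were not called. Cholesterol synthesis held 1 lower gene among 22, Tm7sf2 (-1.02), not called in DESeq2, with scaling by total counts or without 48 h replicate 2.

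Many genes of the integrated stress response, which ATF4 drives when translation initiation is restrained, were higher. Of 28 tested, 16 were higher, 57.1% against 10.5% of all genes, and none lower, with a median of 0.88. Ddit3 (3.09), Atf5 (2.44), Slc7a11, the cystine transporter (2.42), and Trib3 (1.57) were among them. Atf5 was at 49.1 and 42.3 CPM in DMSO and 257 and 235 CPM at 48 h. Among amino acid synthesis genes of the same list, Asns was at 0.01, Psat1 at -0.41, Phgdh at 0.47 and Shmt2 at -0.07, and Atf4 itself was at 0.33, none of them called. Of 27 p53 targets, 14 were higher (51.9%), 1 of which, Fas, passed the filter only through the 48 h libraries, and none was lower, with a median of 0.78. Plk2 was at 24.2 and 25.5 CPM and then at 142 and 150 CPM, and Mdm2, the ubiquitin ligase of p53, at 163 and 165 CPM and then at 362 and 385 CPM. Cdkn1a, the cell cycle inhibitor p21, had a value of -0.18 and was not called. Of 24 lysosome genes 5 were higher, 20.8% against 10.5% of all genes, and 9 with scaling by total counts. Among the 5 were Ctsd and Sqstm1 at 1.01 and 0.88, and Gpnmb at 3.40.

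The naive pluripotency list held 8 lower genes, 40% against 8.19% of all genes, and 1 higher gene among 20, with a median of -0.54 (-0.34 with scaling by total counts). Dppa3 was at 79.4 and 79.3 CPM in DMSO and 8.70 and 7.19 CPM at 48 h, the greatest change in the list. Nanog was at 760 and 780 CPM and then at 300 and 303 CPM, with Klf2, Prdm14, Tdh, Fgf4 and Dppa5a at -1.42, -1.51, -1.36, -1.27 and -1.26, and Sox2 at -0.86, not called with scaling by total counts. Nr0b1 was higher, at 1.11. Pou5f1, Esrrb, Klf4, Tfcp2l1 and Zfp42 had values of -0.45, 0.05, -0.05, -0.42 and -0.63 and were not called. Lefty1 and Lefty2, inhibitors of Nodal, were lower at -1.83 and -1.96, while Nodal itself was at -0.13 and was not called. Of 7 WNT targets 4 were lower (57.1%) and 1 higher (14.3%), against 8.19% and 10.5% of all genes. Only 2 were lower without DMSO replicate 1 or without 48 h replicate 1, and 1 in DESeq2, and Sp5, 1 of the 4, passed the filter only through DMSO.

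Genes of other lineages were mixed, and their shares are to be read against the 8.19% lower and 10.5% higher of all genes. Of 9 primitive endoderm genes 5 were higher (55.6%) and none lower. But 3 of the 5, Sox17, Cubn and Pdgfra, passed the filter only through the 48 h libraries and could only be higher. Without DMSO replicate 1 only 2 were higher, without DMSO replicate 2 or 48 h replicate 2 only 3, and in DESeq2 only 1. Lrp2, an endocytic receptor, was at 2.39 and 2.92 CPM in DMSO and 14.3 and 17.8 CPM at 48 h, and Gata4 at 5.33 and 5.85 CPM and then at 11.9 and 12 CPM. Of 14 basement membrane genes 5 were higher (35.7%), Col4a1, Col4a2, Lama5, Lamb1 and Hspg2, and 3 in DESeq2. Of 12 neural genes 4 were higher (33.3%), with Sox1 at 2.11 and 1.93 CPM in DMSO and 10.9 and 10.8 CPM at 48 h. The list held 2 lower genes (16.7%), Tubb3 (-1.38) and Nes (-1.20). Neurod1, 1 of the 4 higher genes, passed the filter only through the 48 h libraries. Among 15 epithelial and mesenchymal genes 7 were higher (46.7%) and 1 lower (6.67%). Of epithelial genes Epcam (1.16), Ocln (1.74), Grhl2 (1.73) and Esrp1 (2.53) were higher. Of mesenchymal genes Cdh2 (1.96), Zeb2 (3.41) and Twist1 (3.21) were higher, the last pair having passed the filter only through the 48 h libraries, and Vim was lower (-0.91). The summed levels of the markers of these lineages stand with the libraries above, and their part in these changes was not tested.

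Of DNA replication, mitosis and cytosolic ribosomal protein genes a minority was called, and none was higher. Of 34 DNA replication genes 5 were lower, 14.7% against 8.19% of all genes, and 3 in DESeq2, with scaling by total counts or without 48 h replicate 2. Among the 5 was Lig1, DNA ligase 1, at 415 and 443 CPM in DMSO and 160 and 144 CPM at 48 h. The median of the list was -0.41 (-0.21 with scaling by total counts), and 32 of the 34 had a negative value. Of 19 mitosis genes 3 were lower, Birc5, Kif20a and Plk1, all with a peak, and 1 with scaling by total counts. The 3 are 15.8% of the list, and 15 of the 19 had a negative value. Of 78 cytosolic ribosomal proteins 5 were lower, 6.41% against 8.19% of all genes, and 3 without 48 h replicate 2 and 2 in DESeq2 or with scaling by total counts. Of all tested, 69 of the 78 had a negative value, with a median of -0.34 (-0.14 with scaling by total counts) and summed levels of 54696 to 54985 CPM in DMSO and 43631 to 45445 CPM at 48 h. Their near-identical pseudogene copies make single values uncertain. Lars and Mars, tRNA synthetases, fell by 1.83 and 0.91 on the log2 scale, while Eprs and Wars rose by 0.81 and 1.19. Of 18 apoptosis regulators, 1 was higher and 1 lower, Bak1 (-0.74), whose call was lost in 6 of 12 alternatives, among them DESeq2, scaling by total counts, leaving out DMSO replicate 1 and leaving out 48 h replicate 2. Of 9 interferon and inflammatory genes, 3 were lower, 33.3% against 8.19% of all genes.

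Zinc finger genes named Zfp and a number held 60 lower (17%) and 28 higher (7.93%) of 353 tested, against 8.19% and 10.5% of all genes. Of the 60 lower ones 55 carried a peak, and of the 28 higher ones 3 did. In DESeq2 38 were lower and 15 higher. Their median was -0.10 and became 0.10 with scaling by total counts. Of the 60 lower genes 10 passed the filter only through DMSO, and of the 28 higher genes 8 only through 48 h, and these could only go that way, among them Zfp418 and Zfp493 (DMSO) and Zfp608 (48 h). Zfp418, Zfp358 and Zfp493 had log2 changes of -4.65, -4.37 and -3.86, and Zfp423 and Zfp608 of 2.45 and 3.59. Among genes of mannose activation and O-mannosylation, 5 of 16 were lower, among them Gmppa (-2.87) and Pomt2 (-2.44), and 1 was higher, Dpm1 (1.03), not called in DESeq2 or with any library left out. The 5 are 31.25% of that list, against 8.19% of all genes, and Pomgnt2, 1 of them, passed the filter only through DMSO. Cpox, of heme synthesis, was at 49.3 and 50.2 CPM in DMSO and 3.75 and 6.39 CPM at 48 h. Peg10, a paternally expressed gene, fell by 2.31 on the log2 scale. Sgce, which carries the same peak, rose by 2.09, but passed the filter only through 48 h and was not called in DESeq2. Of 19 imprinted genes 2 were lower (10.5%), with Zim1 passing only through DMSO, and 4 were higher (21.1%). Of 9 bound genes from the published examples of a response to ZFP143 loss 5 were lower, and of 7 genes at chromatin contact viewpoints 6 were lower. Of the 6, Zfp111, Zfp108 and Rbm41 passed the filter only through DMSO, as did Pomgnt2 of the first 5. Both lists are the choice of the study, so their direction is not independent evidence.

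**Figure D4:**
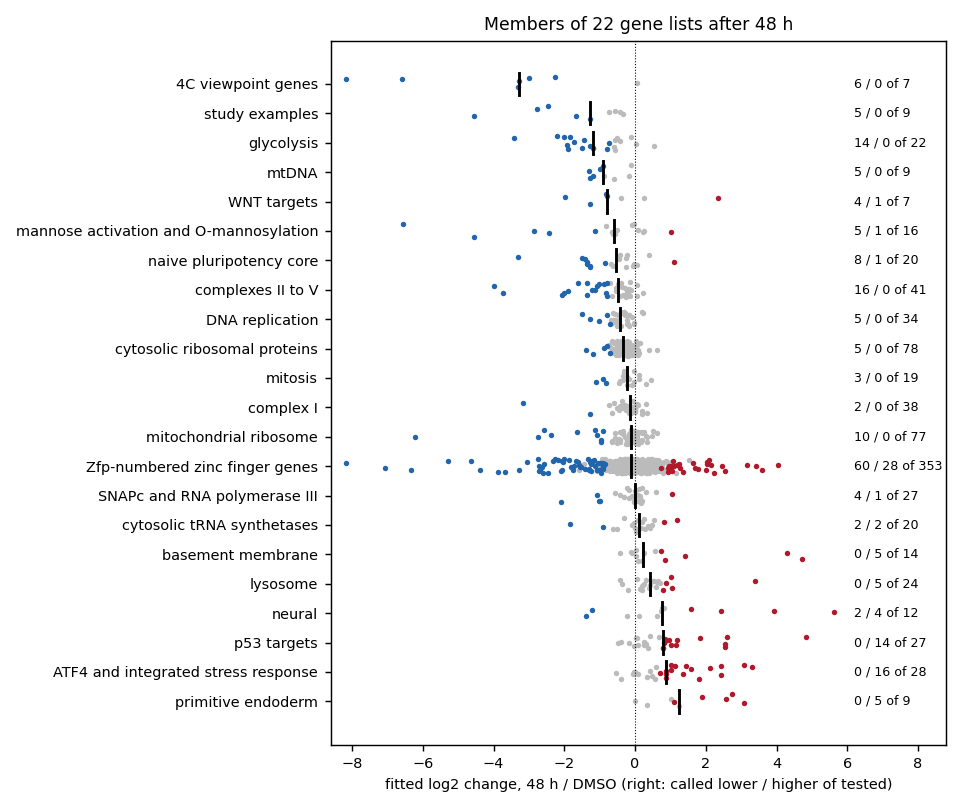
Fitted log2 change at 48 h over DMSO of the tested members of 22 gene lists, 1 point per gene, blue when called lower, red when called higher and grey otherwise, with a bar at each list's median and a dotted line at the median of all genes. Glycolysis and the mitochondrial DNA genes lie to the left, and the stress response and p53 lists to the right.

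By chromosome, chromosome 7 had the greatest share of lower genes after the mitochondrial genome, 149 of 1124 or 13.3%, against 6.35 to 9.68% on each other autosome. Protein-coding genes made up 1111 of the lower and 1369 of the higher genes, and of 254 lincRNAs 11 were lower and 31 higher.

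The 24 h and 72 h libraries share the DMSO controls with 48 h, so their values are set side by side only. At 24 h 3.80% of the genes were lower and 2.30% higher, and at 72 h 12.7% and 13.2%. Zfp111 had log2 changes of -6.75, -8.18 and -7.17 at 24, 48 and 72 h, and Mpi of -5.81, -6.55 and -6.58, so both were already low at 24 h. Prph had values of 2.05, 5.63 and 6.56, Dppa3 of -0.88, -3.31 and -4.85, and Aldoa of -0.92, -2.0 and -2.08. Rpp30, a subunit of RNase P, had values of -3.36, -2.46 and -1.24, the smallest at the last time.

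Libraries that share no control with these were used as well. In TT-seq after 24 h, 1096 of the lower genes were tested, and 416 were called lower there, 38% of them and 63.0% of the 660 called there, against 5.08% of all 12999. Of 1289 higher genes 193 were higher, 15% of them and 67.2% of the 287 called, against 2.21%. After only 2 h of TT-seq 266 of the 1096 were lower, 24.3%, against 2.98%, and 13 of the 1289 were higher, 1.01%, against 0.200%. In the separate RNA-seq table of cells before retinoic acid, 463 of 1140 lower genes were lower after dTAG-V1, 40.6%, against 4.11% of 13968, and 302 of 1447 higher genes were higher, 20.9%, against 2.94%. After retinoic acid 485 of the 1140 were lower, against 7.7% of all genes, and 503 of the 1447 were higher, against 8.1%. There 33 of the 1140 and 33 of the 1447 were called in the opposite direction, against 1 and 4 before retinoic acid. Across genes, the 48 h change correlated with the TT-seq change at 24 h (Pearson r = 0.71, 12999 genes, which are not independent replicates). With the change before and after retinoic acid, r was 0.72 and 0.54 over 13968 genes. Ldha had a log2 change of -1.93 at 48 h, of -1.16 in TT-seq at 24 h and of -0.83 before retinoic acid. Dppa3 and Nanog had values of -0.71 and -0.52 in TT-seq at 24 h and of 1.47 and -0.37 at 2 h, none of them called.

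**Figure D5:**
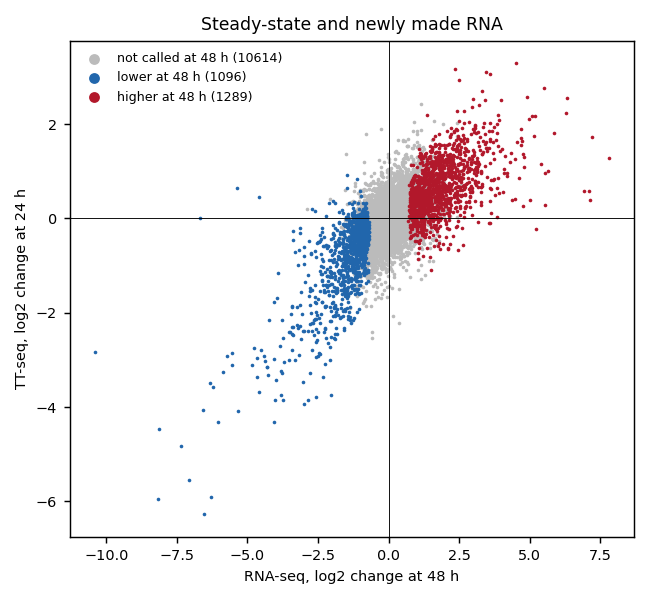
Log2 change in newly made RNA after 24 h (TT-seq) against that in steady-state RNA after 48 h, 1 point for each of 12999 genes, coloured by the call at 48 h. Genes lower at 48 h (blue) lie mostly in the lower left and genes higher (red) mostly in the upper right.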

How the data were processed

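RNA was isolated and sequenced after poly(A) selection with a stranded kit, in 2 biological replicates per group. The authors mapped reads with STAR to mm10 and deposited raw read counts per gene, and their ZFP143 peak list gives a ratio (fold enrichment over input) and a −log10 q-value for each peak. No difference columns of the authors were used, and 0 columns of the count tables were left unused. Here, the 8 libraries of the time course were fitted together in edgeR 4.0.16 (R 4.3.3, limma 3.58.1) with TMM scaling, and the 48 h contrast was tested with glmTreat against 1.5-fold, with Benjamini-Hochberg adjustment over 14171 genes. Standard errors come from the quasi-likelihood fit, and the common biological coefficient of variation was 3.65%. Symbols and start sites came from a GENCODE annotation of the same build. Named genes were Zfp143, the 12 called genes with the greatest change in each direction and the 8 with the greatest change in CPM (mean count of at least 100, groups apart), the 6 with the strongest peak or greatest bound increase, up to 3 per list and direction, all members of 4 lists and 3 from each end of the filter. Other genes named in the text were chosen after their values were seen. The members and gene lists were chosen with earlier results of these data known. Alternatives were other scalings, filters, DESeq2 1.42.0, fewer libraries and a replicate block. Same-numbered samples deviated with correlations of -0.05 to 0.06, so the numbers were not used as pairs. P-values measure the spread between 2 libraries per group.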

Additional observations from a re-analysis of the deposited data

How the results depend on the processing

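The 1161 lower genes became 766 with scaling by total counts alone, which moved the median of all genes to 0.21 on the log2 scale, 2494 with the quasi-likelihood test at 0.05 and an absolute log2 change over 0.5, and 767 in DESeq2 against 1.5-fold. The 1487 higher genes became 2098, 2978 and 786. The causes were not tested. Leaving out 1 library gave 983 to 1093 lower and 1224 to 1330 higher genes, the remaining library of that group being assumed to vary like the others. The share of lower genes with a peak was 53.7% with scaling by total counts and 53.9% in DESeq2, and without DMSO replicate 1, an alternative chosen after seeing the data, 48.9% and 5.80% of the higher genes. The replicate numbers did not pair the samples, and with a replicate block 1153 genes were lower and 1470 higher. Other filters, relative log expression size factors and a fit of only the 4 libraries left both counts within 1.5 times. Of 2142 values for 180 named genes under 12 alternatives, 3 of these added for named genes after seeing the data, 73 lost a call, in 31 genes, 10 gained one, in 6 genes, and none reversed. The medians of 6 of 38 lists changed sign with scaling by total counts. Counts of 1 or 2 per library limit the fold of nearly silent genes.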
